A study of Arabidopsis thaliana with 48 samples.

Results

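Roots of Arabidopsis thaliana seedlings kept for 4 h on medium with 1 µM ACC (1-aminocyclopropane-1-carboxylic acid) were compared with roots kept for 4 h on control medium. The comparison used the 3 arrays whose titles name ACC and 4 h and the 3 whose titles name control and 4 h, 6 of the 48 arrays of a time course with 8 times, and asked which transcripts had changed by the time at which a broad difference between the media is first seen. Seedlings of both groups were 6 days old, had grown in continuous light on 1×MS medium with 1% sucrose, and were moved on their nylon mesh to fresh medium at 0 h. Both groups therefore went through the same kind of transfer, and ACC is the only difference between them that the labels name. The labels give neither an ecotype nor a genotype, and nothing in them ties a replicate to a culture of its own. The p-values hence cover only how far these samples varied, which may be technical variation.

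ACC is the direct precursor of ethylene, a gaseous hormone that plant cells make from it. Ethylene switches off receptors that otherwise repress the response, which lets the EIN3 family of transcription factors act, and it also induces proteins that dampen the same pathway. In roots it is known for slowing cell elongation and for promoting root hairs, and growth by elongation depends on enzymes that loosen and rebuild the cell wall.

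At 4 h the ACC roots differed from the control roots in both directions in almost equal number. Of 22739 probe sets, 951 (4.18%) passed the test at an adjusted p below 0.05, of which 469 (2.06%) were higher and 482 (2.12%) were lower on ACC (limma, Benjamini-Hochberg adjustment over all probe sets). Differences are ACC minus control on the log2 scale, with the standard error (SE) of the fit and n = 3 arrays in each group throughout. The median difference was 0.79 among the probe sets that rose, -0.76 among those that fell and 0.00 over all probe sets. A change of at least 1 (a doubling or halving of signal) was reached by 167 of those that rose and 137 of those that fell. The 3 ACC arrays lay wholly apart from the 3 control arrays in 929 of the 951, while 19.5% of all probe sets did so (9.21% with ACC above and 10.3% with ACC below). The first principal component of the 6 arrays, with 44.1% of the variance, set the ACC arrays (16.2 to 30.1) apart from the control arrays (-27.4 to -19.6). Control replicate 3 stood apart from the other 5 on the second (34.0, against -23.3 to 6.88).

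These counts fell when arrays were left out, which also lowers the precision of the fit. Dependence on a given array and loss of precision cannot be told apart in these fits. With 1 ACC array left out the number passing was 458, 808 or 588 (replicates 1, 2 and 3 in turn), and with 1 control array left out it was 541, 792 or 578. It was 52 when replicate 1 was left out at all 8 times, and these 52 were all among the 951. A sign of RNA quality also moved with the medium. The signal of the GAPDH probe set at the 3' end minus that at the 5' end was 1.17, 1.02 and 0.77 in ACC roots, against 0.64, 0.86 and 0.52 in control roots (exact two-sided permutation p = 0.2, adjusted 0.3 over 3 such measures, with 0.1 the smallest p possible). With this difference as a covariate 715 probe sets passed, 634 of them among the 951. EXPA7 and EXPA18, root hair expansins, were the markers of root tissue measured, 2 of 15 listed. Both gave clear signal on all 6 arrays, as described with the root hair genes. For 9 photosynthesis genes, which mark green tissue, the mean signal per array was 6.58 to 7.19 on ACC and 6.77 to 6.86 on control medium, and none passed the test. In whole roots, fewer cells of a type and less RNA per cell cannot be told apart.

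Genes of the ethylene pathway's own feedback were among those that rose. ARL, an ARGOS-like gene whose family restrains ethylene signalling, had log2 signals of 10.82, 10.68 and 11.19 in ACC roots, against 7.96, 8.64 and 8.79 in control roots. RTE1, which sustains signalling by the ethylene receptor ETR1 and so opposes the response, had 10.07, 9.82 and 10.12 in ACC roots, against 8.69, 9.03 and 9.04 in control roots. The groups did not overlap in either gene. ARL rose by 2.43 ± 0.28, a 5.39-fold change (limma, adjusted p = 5.96e-07), and RTE1 by 1.09 ± 0.15, or 2.12-fold (adjusted p = 2.31e-05). The other measured members of the list did not pass: EIN3, the transcription factor itself, differed by 0.05 ± 0.16, ETP2, an F-box protein that helps remove the signalling protein EIN2, by 0.05 ± 0.16, and RTH, a homologue of RTE1, by -0.16 ± 0.13. Of the list of ethylene signalling genes, 5 were measured, of which 2 rose and 0 fell, with a median difference of 0.05. ARL and RTE1 passed without each single array at 4 h.

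Several transcription factors rose with them. DEWAX (AT5G61590), an AP2-domain repressor of wax synthesis, had 9.78, 9.45 and 10.49 in ACC roots, against 7.43, 7.03 and 8.42 in control roots. All ACC arrays lay above all control arrays, and the difference was 2.28 ± 0.48 (adjusted p = 0.00294). Among 22 measured bZIP factors 1 rose, bZIP44 by 1.01 ± 0.20 (adjusted p = 0.00126), and 1 fell, BZIP34, by 0.36 on the log2 scale (adjusted p = 0.0359). Chosen after their values were seen, MYBC1, a MYB-type factor, was higher by 1.10 ± 0.21, SMZ, an AP2-type repressor of flowering, by 0.78 ± 0.15, and TINY2, an AP2-domain factor, by 0.53 ± 0.14. The call of BZIP34 was lost without any single one of the 6 arrays (adjusted p up to 0.161) and that of TINY2 without ACC replicate 1 or 2 or control replicate 1 or 3 (up to 0.128). Both were also lost with the GAPDH covariate (0.104 and 0.0877). No member of the lists of 7 WRKY, 5 bHLH or 9 auxin response and lateral root genes passed. These lists hold only genes matched on a symbol or recorded name, so they do not cover the whole families. BHLH101, a bHLH factor held in the iron deficiency list instead, fell and is described there.

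**Figure D1:**
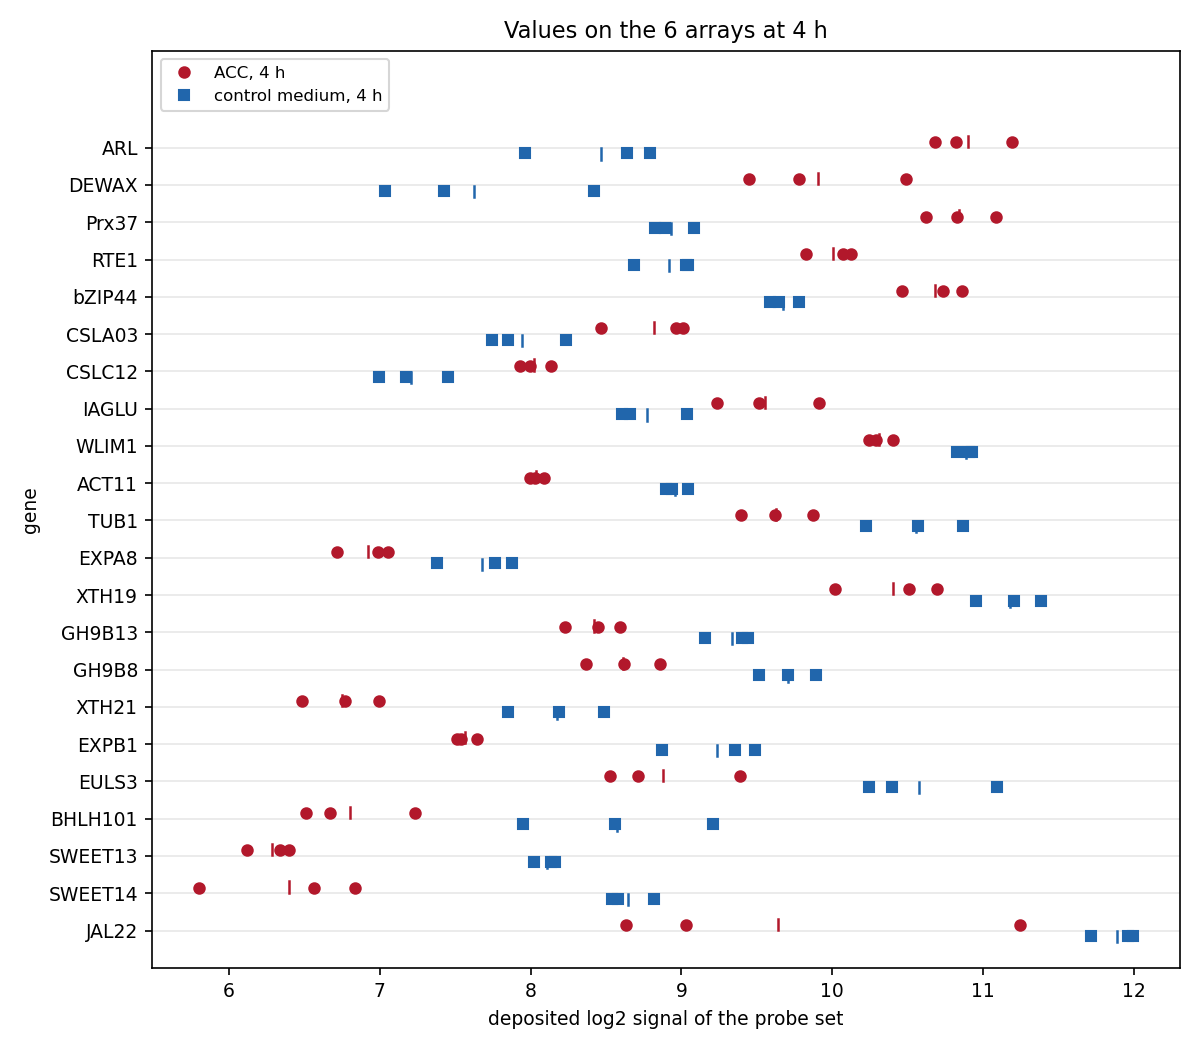
Deposited log2 signal (horizontal axis) of 22 annotated genes on the 6 arrays at 4 h, with ACC arrays as red circles, control arrays as blue squares and each group's mean as a short line. For ARL the ACC arrays lie at 10.68 to 11.19 and the control arrays at 7.96 to 8.79, and the 2 groups overlap in none of the genes drawn, which were picked after their values were seen.

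Genes of wall loosening fell, as far as they passed at all. EXPB1, a beta-expansin, one of the proteins that loosen the wall during growth, had 7.54, 7.51 and 7.65 in ACC roots, against 9.36, 8.87 and 9.49 in control roots. XTH21, a xyloglucan endotransglucosylase, which cuts and rejoins the xyloglucan that ties cellulose together, had 6.48, 6.77 and 6.99 in ACC roots, against 8.49, 7.85 and 8.19 in control roots. In both genes every ACC array lay below every control array. EXPB1 differed by -1.67 ± 0.30 (limma, adjusted p = 0.000528) and XTH21 by -1.43 ± 0.25 (adjusted p = 0.000311), and both passed without each single array.

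The rest of these families was mixed. Of 19 measured expansins 0 rose and 2 fell, the other being EXPA8 (-0.75 ± 0.19, adjusted p = 0.0165), and differences in the list ran from -1.67 to 0.96 with a median of -0.08. Of 9 xyloglucan endotransglucosylases 0 rose and 2 fell, the other being XTH19 (-0.78 ± 0.21, adjusted p = 0.0257), with a median of -0.08. The call of EXPA8 was lost without ACC replicate 2, control replicate 1 or control replicate 3 (adjusted p up to 0.11) and with the GAPDH covariate (0.0691). That of XTH19 was lost without ACC replicate 1 or 3 or control replicate 2 or 3 (up to 0.241) and with the covariate (0.0589). Among genes sharing a symbol stem, all families of at least 5 measured genes were examined. In the GH family the endoglucanases GH9B8 (-1.09 ± 0.31) and GH9B13 (-0.91 ± 0.23) fell among 19 genes, and among 22 TBL genes, a family linked to acetylation of wall polymers, TBL39 (-0.81 ± 0.16) and TBL19 (-0.49 ± 0.14) fell. TBL40 (AT2G31110) was higher and is given below, but is not among the 22, since its symbol in the annotation is a locus code. GH9B8 lost its call without any array other than ACC replicate 2, GH9B13 without ACC replicate 1 or 2 or control replicate 1 or 3, and TBL19 without any array other than control replicate 2 (adjusted p up to 0.15, 0.0743 and 0.298). All 3 lost it with the GAPDH covariate as well (0.0874, 0.0592 and 0.160).

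Other wall genes moved in both directions. CSLC12, which makes the backbone of xyloglucan, had 8.13, 7.93 and 8.00 in ACC roots, against 6.99, 7.17 and 7.46 in control roots. Its groups did not overlap and it rose by 0.81 ± 0.21 (adjusted p = 0.0206), as did CSLA03, a mannan synthase, by 0.87 ± 0.26 (adjusted p = 0.0467), the 2 that passed among 8 measured genes of the cellulose synthase list. Both calls were lost without ACC replicate 1 or 3 or control replicate 1 or 2 (adjusted p up to 0.198 for CSLA03 and 0.127 for CSLC12) and with the GAPDH covariate (0.0782 and 0.0588). Prx37, a class III peroxidase, one of the secreted enzymes that can stiffen or loosen walls, had 10.83, 10.62 and 11.08 in ACC roots, against 8.82, 9.08 and 8.89 in control roots. It rose by 1.91 ± 0.40 (adjusted p = 0.00294), the 1 called among the 6 peroxidases of the list, whose median difference was 0.45. That list was matched on symbols and recorded names, so peroxidases known by a locus code alone were not counted. LAC16, a laccase, fell by 0.87 on the log2 scale (adjusted p = 0.00202), 1 of 5 lignin genes. Chosen after their values were seen, IRX15-L, needed for xylan, was lower (-0.69 ± 0.16), as was the pectin methylesterase ATPMEPCRD (-0.74 ± 0.22), while TBL40 (AT2G31110) was higher (0.82 ± 0.15). The list of pectin methylesterases, their inhibitors and polygalacturonases does not hold ATPMEPCRD, and 0 of its 4 measured genes passed. Their differences ran from -0.17 to 0.63, with a median of -0.04. IRX15-L lost its call without ACC replicate 1 (0.119) and ATPMEPCRD without any array other than control replicate 2 (up to 0.341) or with the GAPDH covariate (0.0811).

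**Figure D2:**
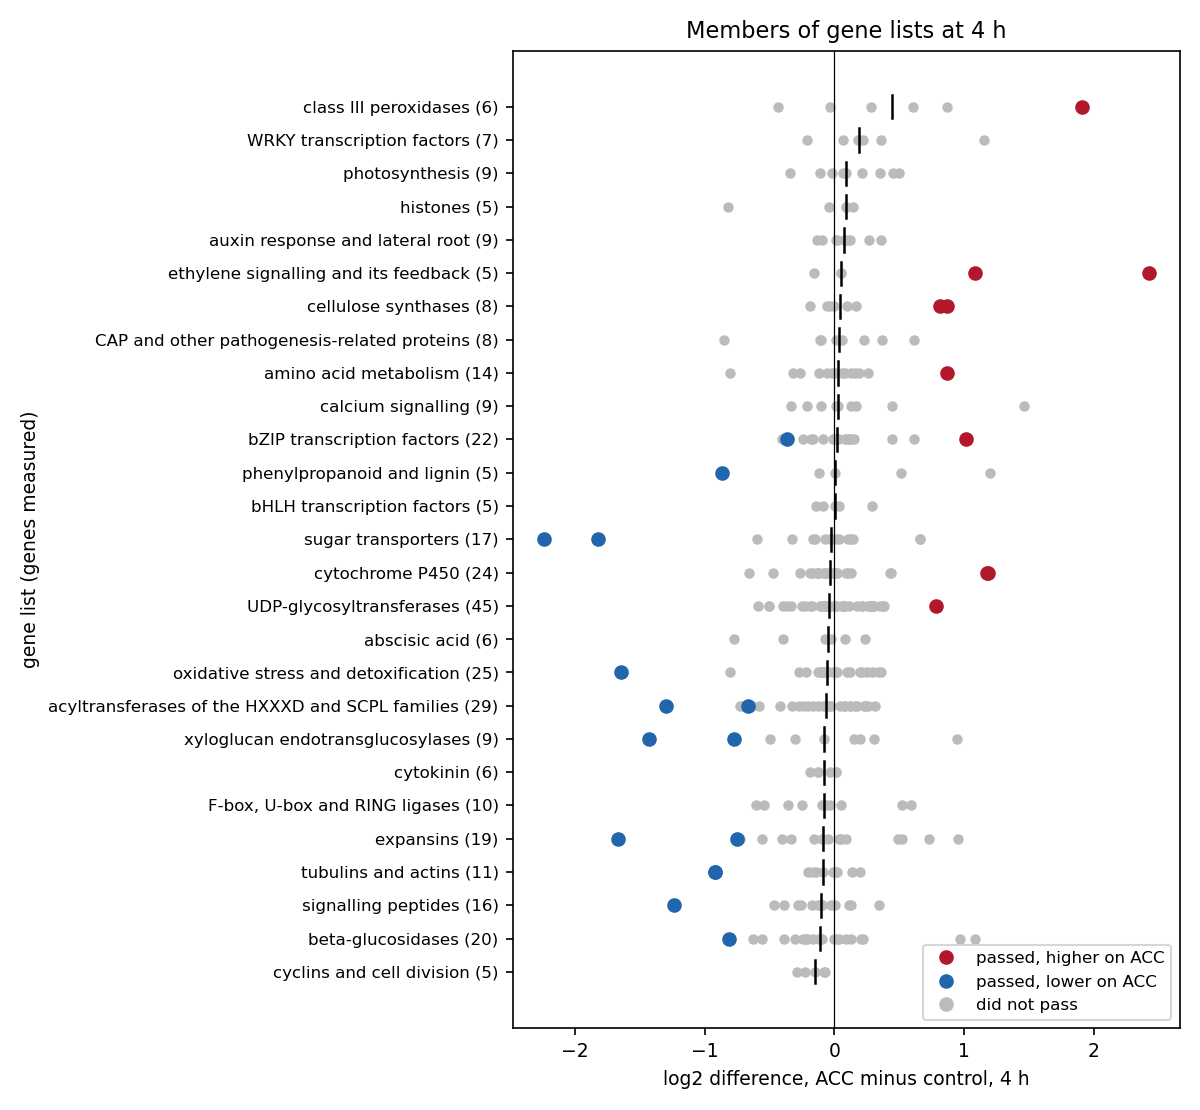
Difference at 4 h (ACC minus control, log2, horizontal axis) of every measured member of the gene lists with at least 5 measured genes, with genes past the test in red (higher) or blue (lower), others in grey and the list's median as a black line. The medians of all these lists except the 6 class III peroxidases (0.45) lie within 0.20 of 0, and the farthest to the left and right are SWEET14 (-2.24) and ARL (2.43), both past the test.

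Root hair genes were higher on average but none passed. EXPA7, an expansin of growing root hairs, had 10.17, 10.29 and 10.22 in ACC roots, against 8.96, 9.09 and 9.75 in control roots. The groups did not overlap, with control replicate 3 nearest to the ACC arrays, and the difference was 0.96 ± 0.37 (adjusted p = 0.163). EXPA18 had 10.70, 10.72 and 10.49 on ACC, against 9.47, 9.93 and 10.33 on control medium, a difference of 0.73 ± 0.37 (adjusted p = 0.366). XTH26, a xyloglucan endotransglucosylase of root hairs, had 8.12, 7.48 and 7.95 on ACC, against 6.00, 6.64 and 8.06 on control medium, and its groups overlapped (0.95 ± 0.41, adjusted p = 0.241). At 8 h XTH26 was higher by 2.04 (adjusted p = 0.00149) and at 24 h by 2.26 (adjusted p = 0.000424), and the change in its effect from 4 h to 8 h did not pass.

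Of the SWEET family of sugar exporters, SWEET13 and SWEET14 fell, 2 of 14 genes measured. SWEET14, a sucrose transporter, had 5.80, 6.84 and 6.56 in ACC roots, against 8.82, 8.58 and 8.54 in control roots. Its close relative SWEET13 had 6.12, 6.40 and 6.34 in ACC roots, against 8.16, 8.14 and 8.02 in control roots. Neither gene's groups came near each other, and SWEET14 fell by 2.24 (4.74-fold, adjusted p = 0.000175) and SWEET13 by 1.82 (3.53-fold, adjusted p = 3.81e-05). They were the 2 that passed among 17 genes of the sugar transporter list, 14 of them in the SWEET family, whose median difference was -0.03, and both passed without each single array. TMT2, a transporter that loads sugars into the vacuole and was chosen after its values were seen, differed by -0.44 ± 0.12 (adjusted p = 0.0231) and lost its call without ACC replicate 1 or 3 or control replicate 2 or 3 (up to 0.152).

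Among lectins 2 jacalin-related genes and EULS3 fell, while the peptide and iron deficiency lists gave 1 fall each. JAL22, a jacalin-related lectin, had 9.03, 8.64 and 11.25 in ACC roots, against 11.99, 11.71 and 11.96 in control roots. ACC replicate 3 lay close to the control arrays and the other 2 far below. It differed by -2.25 ± 0.53 (adjusted p = 0.00789) and JAL33 by -1.07 ± 0.25 (adjusted p = 0.00812), 2 of 4 jacalin genes measured. JAL22 lost its call without ACC replicate 1 or 2 (up to 0.0851) and JAL33 without ACC replicate 1 or control replicate 3 (up to 0.0832). EULS3, a lectin of another family that was chosen after its values were seen, had 8.52, 9.39 and 8.71 in ACC roots, against 10.40, 10.25 and 11.09 in control roots. Its groups did not overlap, the difference was -1.70 ± 0.25 (adjusted p = 3.24e-05), and it passed without each single array.

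RALFL27, one of the RALF peptides, which act on wall-sensing receptor kinases, fell by 1.24 (adjusted p = 0.0165), 1 of 16 peptide genes. THE1, a receptor kinase that senses wall integrity and was chosen after its values were seen, differed by -0.90 ± 0.21 (adjusted p = 0.00833). RALFL27 lost its call without ACC replicate 1 or 2 or control replicate 1 or 2 (up to 0.124) and THE1 without control replicate 1 or 3 (up to 0.0683). BHLH101, a transcription factor of the iron deficiency response, had 6.51, 6.67 and 7.23 in ACC roots, against 9.21, 8.56 and 7.95 in control roots. The groups did not overlap but the control arrays were spread widely. It fell by 1.77 (adjusted p = 0.0168), 1 of 3 iron deficiency genes measured, and lost its call without ACC replicate 1 or 2 or control replicate 1 (up to 0.138). Another of the 3 went the other way, higher by 1.41 with all ACC arrays above the control arrays, but did not pass. The median of the list was -0.18. ZIP9, of the zinc and iron transporter family, was chosen after its values were seen and was higher by 0.85 ± 0.16 (adjusted p = 0.00101).

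Of the cytoskeleton genes, ACT11, an actin, had 8.09, 8.03 and 8.00 in ACC roots, against 9.04, 8.90 and 8.94 in control roots. TUB1, a beta-tubulin, had 9.39, 9.62 and 9.87 in ACC roots, against 10.57, 10.23 and 10.87 in control roots. Both were lower on every ACC array than on any control array, with differences of -0.92 each (adjusted p = 0.00154 and 0.034), and they were the 2 that passed among 11 tubulin and actin genes, with a median of -0.09. TUB1 lost its call without ACC replicate 1 or 2 or control replicate 1 or 3 (up to 0.188) and with the GAPDH covariate (0.134), whereas ACT11 passed in each of these fits. WLIM1, an actin-bundling protein chosen after its values were seen, had 10.24, 10.40 and 10.29 on ACC, against 10.83, 10.90 and 10.92 on control medium, and differed by -0.57 ± 0.12. In families linked to microtubules, TRM28 (0.93 ± 0.28) and TRM19 (0.67 ± 0.19) rose among 15 TRM genes and iqd15 (0.65 ± 0.14) among 15 IQD genes. TRM28 lost its call without any array other than control replicate 3, TRM19 without any other than ACC replicate 2, and iqd15 without ACC replicate 1 (adjusted p up to 0.198, 0.196 and 0.0661). TRM19 lost it with the GAPDH covariate too (0.110).

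For enzymes of small molecules, the lists described here are those that held a gene that passed, 1 or 2 in each. None passed in the lists of flavonoid (4 measured), glucosinolate (2) and triterpene (1) genes. Over all 13344 genes 1.86% rose and 1.84% fell. Some counts below are near these shares, such as the 2.22% of the glycosyltransferases that rose. CYP71B29, a cytochrome P450, had 8.51, 8.48 and 8.48 in ACC roots, against 7.39, 7.16 and 7.39 in control roots. It rose by 1.18 ± 0.22 (adjusted p = 0.000878), as did CYP718 (1.18 ± 0.33, adjusted p = 0.0302), the 2 called among 24 listed P450 genes. IAGLU, which joins the auxin IAA to glucose, had 9.51, 9.24 and 9.91 in ACC roots, against 8.61, 8.66 and 9.04 in control roots, and rose by 0.78 ± 0.20 (adjusted p = 0.0163), 1 of 45 listed glycosyltransferases. UGT76B1, which is not the gene called in that list, also rose and is given below with the UGT family. Among those that fell, the carboxypeptidase-like scpl28 had 7.50, 7.73 and 7.58 on ACC, against 8.75, 8.74 and 9.20 on control medium, a difference of -1.30 ± 0.18 (adjusted p = 1.75e-05). SCPL34 (-0.67 ± 0.19) was the other of 29 in that list. GSTU25, a glutathione S-transferase, fell by 1.65 (adjusted p = 0.0029), 1 of 25 detoxification genes, and BGLU16, a beta-glucosidase, by 0.81 (adjusted p = 0.00583), 1 of 20. CYP71B29 and scpl28 passed without each single array. CYP718 lost its call without any array other than control replicate 3, IAGLU without ACC replicate 1 or 3 or control replicate 1 or 2, SCPL34 without any other than control replicate 2, GSTU25 without ACC replicate 1, and BGLU16 without ACC replicate 1 or control replicate 3 (adjusted p up to 0.18, 0.151, 0.296, 0.0745 and 0.0839). Of these 5, SCPL34 lost it with the GAPDH covariate (0.140).

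Counts over all lists and families were as follows. Of 49 lists with a measured member, 18 held a gene that passed. Over their 389 genes 10 rose (2.57%) and 18 fell (4.63%), beside 1.86% and 1.84% of all 13344 genes. Lists and families were matched on symbols and names, and most of the 13344 carry a locus code alone. Of the 1861 genes with a name beyond the locus code, 43 rose and 42 fell. Of 47 families, 22 held a gene that passed, and over their 548 genes 13 rose (2.37%) and 18 fell (3.28%). Those not yet described held UGT76B1 (0.70) among 47 UGT genes, the defensin PDF2.5 (1.11) among 7 PDF genes, the glutamate receptor-like channel GLR3.5 (0.57) among 7, and the tetraspanin TET6 (0.54) among 15. In the same way LSM6A (0.34), an RNA-binding Sm-like protein, was 1 of 6, NRPB7 (0.35), an RNA polymerase II subunit, 1 of 6, and the ubiquitin-conjugating enzymes UBC29 (0.51) and UBC22 (-0.35) were 2 of 12. Of these 8 genes, PDF2.5 alone passed without each single array, and UGT76B1, LSM6A, UBC29 and UBC22 did not pass with the GAPDH covariate (adjusted p = 0.152, 0.0979, 0.126 and 0.107). MAP1B, a methionine aminopeptidase, rose by 0.87 ± 0.20 in the list of 14 amino acid metabolism genes and lost its call without ACC replicate 3 or control replicate 3 (up to 0.0773). Chosen after their values were seen, PSY1R, a receptor kinase named for the peptide PSY1, was higher by 1.01 ± 0.18, FAC1, an AMP deaminase, was higher by 0.75 ± 0.12, and ALN, the allantoinase of purine breakdown, was lower (-0.53 ± 0.14). ALN lost its call without ACC replicate 1 or 3 or control replicate 3 (up to 0.262) and with the GAPDH covariate (0.0581).

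Of the probe sets that passed with a change of at least 2, 32 were higher and 22 lower, and 14 and 8 of these are annotated to a single gene. The order given here is among those of a single gene whose arrays did not overlap, most of which carry a locus code and no name. AT5G48430 had 12.13, 11.83 and 11.91 in ACC roots, against 7.80, 7.10 and 7.49 in control roots, a rise of 4.49 ± 0.62 or 22.5-fold (adjusted p = 1.39e-05). AT5G40590 had 11.43, 11.22 and 11.52 on ACC, against 6.87, 6.79 and 8.36 on control medium, a rise of 4.05 ± 0.57. In both genes the lowest ACC array stood at least 2 log2 units above the highest control array. AT5G19890 rose by 3.55, with ACC replicate 2 at 8.90 near control replicate 2 at 8.12. Beside ARL and DEWAX, it was followed by AT4G39675 (3.12), AT4G21870 (3.09), AT1G26250 (3.03), AT2G39980 (2.96), AT2G41810 (2.79), AT4G38410 (2.77), AT2G43140 (2.68), AT1G05700 (2.48) and AT2G47550 (1.94). The smallest adjusted p of those named belonged to AT2G39980, at 9.72e-08, with 10.97, 10.12 and 10.81 on ACC, against 6.97, 7.48 and 8.56 on control medium. AT1G26250 lost its call without ACC replicate 1 or 3 or control replicate 1 (up to 0.103) and AT1G05700 without ACC replicate 3 or control replicate 3 (up to 0.0722).

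Among the falls, again within probe sets of a single gene, the largest were AT2G41730, with 8.00, 9.35 and 6.86 in ACC roots, against 12.18, 11.60 and 11.03 in control roots, and AT5G04120, with 6.09, 6.52 and 6.70 in ACC roots, against 10.27, 9.22 and 10.32 in control roots. They differed by -3.54 ± 0.88 (adjusted p = 0.0129) and -3.50 ± 0.77 (adjusted p = 0.0041). The ACC arrays of AT2G41730 were spread over more than 2 log2 units, those of AT5G04120 over less than 1. Beside JAL22 and SWEET14, the next were AT4G11210 (-2.38), AT5G43450 (-2.18), AT5G38020 (-2.11), AT1G64590 (-2.06), AT4G11190 (-1.999), AT3G59370 (-1.93), AT5G57785 (-1.92), AT1G14960 (-1.91) and AT1G19960 (-1.89). AT5G04120, AT4G11210, AT5G38020 and AT3G59370 passed without each single array, and the other 7 of these 11 genes did not. AT1G64590, AT4G11190, AT5G57785, AT1G14960 and AT1G19960 also lost their calls with the GAPDH covariate (adjusted p = 0.0581, 0.0602, 0.0760, 0.108 and 0.114).

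Some genes that passed lie side by side. In the order of protein-coding genes in the RefSeq table of the TAIR10.1 assembly, 5813 adjacent pairs had both genes measured and both passed in 19. The pair moved in the same direction in 18, of which 11 rose and 7 fell. Of the measured neighbours of genes that passed, 8.32% passed too, beside 3.69% of all genes. Runs of 3 were AT4G15680 (0.73), AT4G15690 (1.21) and AT4G15700 (0.92), and AT1G52700 (0.85), AT1G52710 (0.64) and AT1G52720 (0.91). AT4G11190 and AT4G11210, both named among the falls, were also neighbours. None of the 19 pairs (0) involves a probe set whose ID carries the suffix for probes shared between genes, and the sequences themselves were not compared.

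The genes that passed at 4 h were followed at the other 7 times. The differences at those times did not enter the choice, but their arrays did share in the estimate of each probe set's spread. With the 6 arrays of 4 h alone 664 passed, of which 509 were among the 951. At 0 h, sampled directly after transfer, 42.0% of those higher at 4 h were also higher on ACC and 29.9% of those lower at 4 h were also lower, with median differences of -0.03 and 0.06, beside 52.9% and 47.1% of all probe sets at 0 h. The shares in the same direction were already 82.1% and 82.4% at 0.5 h. They reached 90.2% (higher) and 89.6% (lower) at 1 h and then 97.4% and 96.1% at 2 h, beside 46.0% to 54.0% of all probe sets at these times. At 8 h they stood at 98.5% and 99.8%, and at 24 h at 94.0% and 98.5%. The median difference of those higher at 4 h was 0.23 at 0.5 h, 0.36 at 1 h, 0.45 at 2 h, 0.61 at 8 h, 0.69 at 12 h and 0.51 at 24 h, and of those lower at 4 h it was -0.24, -0.28, -0.37, -0.69, -0.65 and -0.60. Few of the 469 and 482 passed at 2 h (54 and 20), while 250 and 292 passed at 8 h. At 2 h the ACC arrays were spread widely in some genes. Their SD was 2.17 in AT5G48430 (0.15 at 4 h), but 0.17 in SWEET14 (0.54 at 4 h). Without replicate 3 at all times the medians at 2 h were 0.65 and -0.60, for the 415 and 386 probe sets then called. Without replicate 2 they were 0.40 and -0.31, for 270 and 246. Whether this spread lowered the count at 2 h was not tested. Of all probe sets, 5.43% passed at 12 h and 5.44% at 24 h. The GAPDH difference was also larger in ACC roots at each of the 7 times after 0 h, by 0.11 to 0.50, and smaller by 0.18 at 0 h. With it as a covariate, 98.0% of the 401 probe sets then higher at 4 h and 97.8% of the 314 lower were in the same direction at 2 h.

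**Figure D3:**
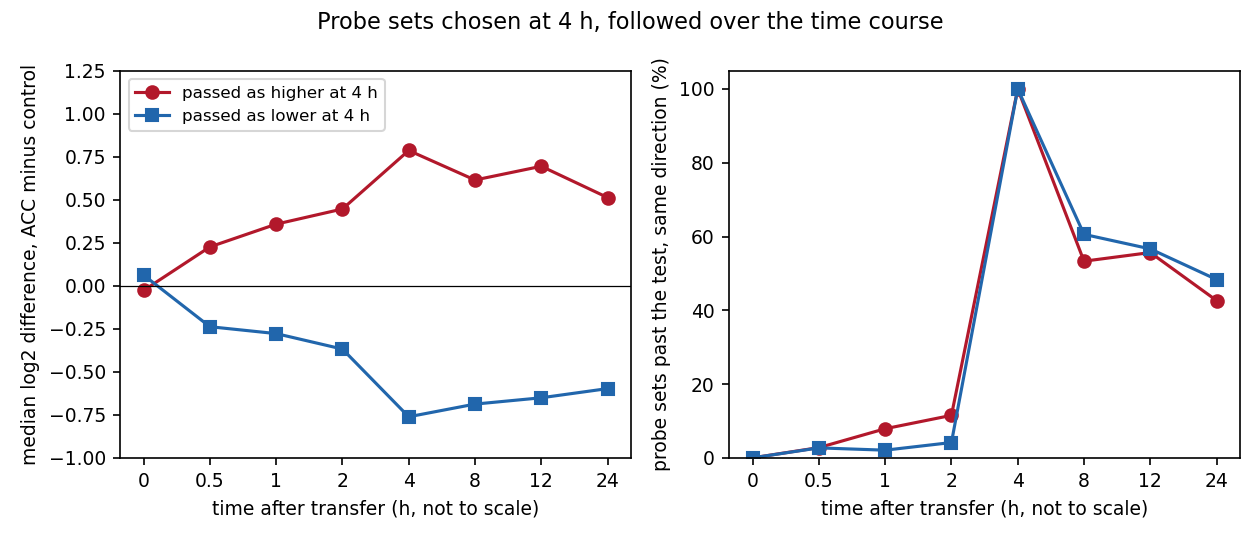
Left, median difference (ACC minus control, log2) at each of the 8 times of the 469 probe sets higher and the 482 lower at 4 h; right, the percentage of them past the test in the same direction at each time. The medians leave 0 by 0.5 h, at 0.23 and -0.24, and the share past the test is at most 11.5% up to 2 h and at least 42.6% from 8 h, while the values at 4 h are those that chose the probe sets.

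Whether the effect at 4 h differed from that before or after was tested directly. The effect at 4 h minus that at 2 h passed in 0 of 22739 probe sets (limma, smallest adjusted p 0.103, with 649 at an unadjusted p below 0.05). The effect at 4 h minus that at 8 h passed in 0 as well (smallest adjusted p 0.647, with 435 at an unadjusted p below 0.05). The counts past the test, 89 at 2 h (0.391%), 951 at 4 h and 1113 at 8 h (4.89%), thus rose between 2 and 4 h without any single probe set whose effect was shown to differ between those times.

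Single genes followed different courses. ARL differed by 1.64 at 2 h and 2.26 at 8 h, and RTE1 by 1.30 and 1.50, and all of these passed. EULS3 differed by -0.38 at 2 h (adjusted p = 0.803) and -1.73 at 8 h (adjusted p = 1.79e-05), and BHLH101 by -0.22 and -1.45, neither of which passed. SWEET14 differed by -1.47 at 2 h (adjusted p = 0.0638) and -2.55 at 8 h (adjusted p = 2.17e-05). IAGLU differed by 1.09 at 2 h (adjusted p = 0.00461), 0.36 at 8 h (adjusted p = 0.423) and 0.35 at 24 h (adjusted p = 0.403). PSY1R differed by 0.49 at 2 h, 1.01 at 4 h and 0.46 at 8 h and passed at 4 h alone among these 3 times. None of these genes passed the tests of 4 h against 2 h or 8 h.

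**Figure D4:**
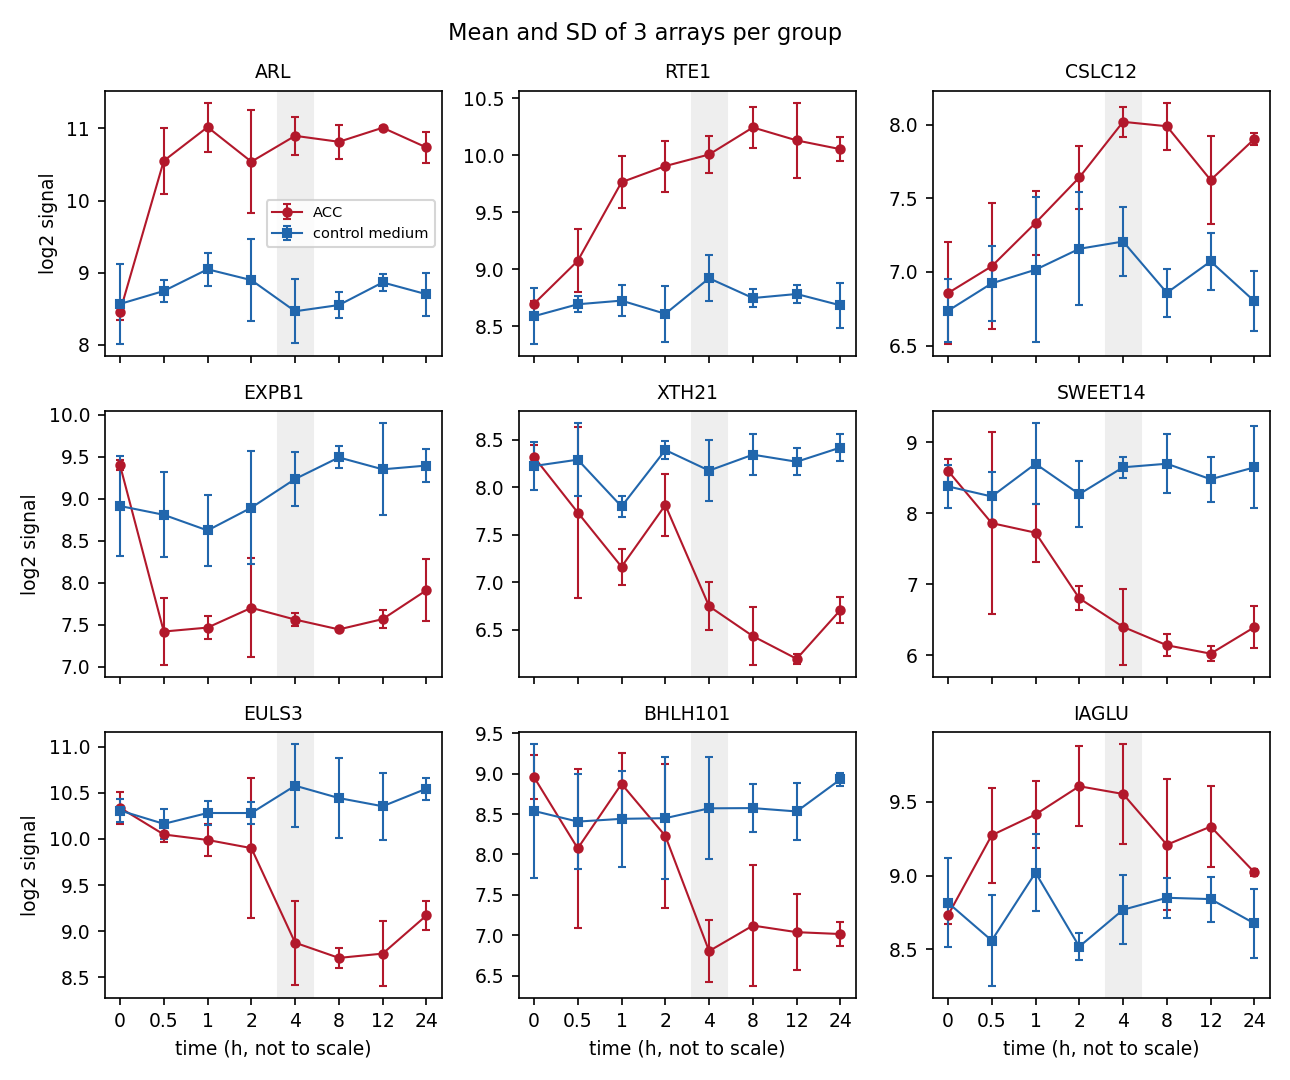
Mean log2 signal (vertical axis, a scale of its own in each panel) of 9 genes, picked after their values were seen, in ACC roots (red circles) and control roots (blue squares) at 8 times, with bars for the SD of 3 arrays and grey shading at 4 h. The SD bars of the media do not overlap for ARL from 0.5 h on, nor for EULS3 and BHLH101 from 4 h on, while those of EXPB1 are apart at 0.5 and 1 h, overlap at 2 h and are apart again from 4 h, and IAGLU lies closer together at 8 and 24 h (differences 0.36 and 0.35) than at 4 h (0.78).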

How the data were processed

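The deposited table gives 1 log2 value per probe set and array, with a log base inferred from the range of values. How probes were summarised and normalized is not given in the sources used here. About 5 µg of RNA was labelled by a 3'-IVT method, per the labels. Array means of the deposited values were nearly equal (7.70), so differences are relative to the average probe set. The number of arrays limits the precision, with a median SE of 0.140.

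Groups follow the titles. Of 22810 probe sets, 64 controls and 7 with an exact 0 were left out. All 48 arrays entered 1 linear model with a term for each of the 16 groups (limma 3.58.1, R 4.3.3; 32 residual degrees of freedom, prior 3.99), with contrasts of ACC minus control at each time and of 4 h minus 2 h and 4 h minus 8 h, checked on simulated data. Names came from the platform annotation (13513 probe sets with 1 symbol, 503 with several, 8730 not listed), updated through RefSeq TAIR10.1 (13436 matched). Where a gene has several probe sets, the one with the highest average signal stands for it.

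The comparison and the lists were chosen with earlier results of these data known. The 63 lists were meant for gene descriptions, which the reference used here lacks, and were matched on symbols and recorded names instead, so 14 found no gene. A set of lists rebuilt around the 4 h results was tried and discarded. The 47 symbol-stem families were added after the 4 h values had been seen, by a rule that takes every stem with at least 5 measured genes. Named genes are, among probe sets with 1 gene, the 14 largest called changes in each direction without overlap, up to 4 called members of each list (or up to 2 where none passed), the largest changes of effect between times (none passed, so 0 were named), and the 5 ethylene genes ARL, RTE1, RTH, EIN3 and ETP2. Of the 84 genes named that passed, 32 lie outside this rule and were chosen after their values were seen. No list was tested as a set.

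The alternatives were quantile normalization, a filter at the 40th percentile, keeping zeros, a trended robust prior, array weights, a replicate block, the arrays of the compared times alone, adjustment over 8 contrasts, a minimum difference of 1, subtraction of the 0 h difference, leaving out the 1 h ACC array whose source names auxin, leaving out replicates, and the GAPDH covariate.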

Additional observations from a re-analysis of the deposited data

Results flagged for a closer look

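For 5 of the genes named, all ACC arrays lay on one side of the control arrays at 4 h and on the opposite side at another time. At 0 h CSLA03 differed by -0.48, UGT76B1 by -0.25, SMZ by -0.14 and ALN by 0.17, none past the test there (adjusted p = 1.00 each, limma). The difference at 4 h minus that at 0 h passed for SMZ (0.93, adjusted p = 0.0206) and did not pass for CSLA03 (1.35, 0.0651), UGT76B1 (0.95, 0.130) or ALN (-0.70, 0.0996). NRPB7 differed by -0.089 at 24 h (adjusted p = 0.716), and its difference between 4 h and 24 h was not tested.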

How the results depend on the processing

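The count of 951 probe sets at 4 h became 1807 with array weights, 304 with a minimum difference of 1 and 229 with the 0 h difference subtracted. It ranged from 458 to 808 when 1 array at 4 h was left out and was 52, 516 and 801 without replicate 1, 2 and 3 at all times. The share that was higher, 49.3%, was 60.2% without control replicate 3 and 65.4% without replicate 1 at all times. The other 9 alternatives gave 664 to 1335. The contrast of 4 h with 2 h gave 1 probe set with the replicate block and ranged from 0 to 1 when replicates were left out. The contrast of 4 h with 8 h gave 1 with array weights and likewise ranged from 0 to 1. The adjustment over 8 contrasts and the 0 h subtraction were run for the 4 h contrast alone. With the replicate block 1335 probe sets passed at 4 h, including all 951. Deviations of same-numbered arrays correlated at 0.118, 0.123 and 0.015 at 4 h, where ACC replicate 1 correlated better with control replicate 3 (0.128). Over the 8 times they ran from -0.26 (0 h) to 0.41 (2 h), and every pair was above 0.1 at 3 of the 8, namely 1, 2 and 8 h. No label says that the numbers mark a shared batch, so the main fit did not use them to pair samples at any time. This includes 2 h, where same-numbered arrays correlated at 0.36 to 0.41, and the replicate block was run as an alternative. Of the 84 genes named that passed, 39 passed without each single array at 4 h, 45 did not, 61 passed with the GAPDH covariate, and 0 changed direction under any alternative. EIN3 and ETP2, which did not pass, changed sign. EIN3 was at -0.041 without replicate 2 at all times and ranged from -0.049 (without control replicate 2) to 0.18 when 1 array was left out. ETP2 was at -0.059 with array weights, -0.075 with the GAPDH covariate and -0.13 without replicate 3 at all times, and ranged from -0.17 (without control replicate 3) to 0.17 when 1 array was left out. The causes were not tested.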
